A study of Mus musculus with 6 samples.

Results

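The nuclear-encoded genes of oxidative phosphorylation (OXPHOS) were followed in bone marrow-derived macrophages (BMDMs) of wild-type and PYK2 knockout mice. Members were chosen by gene symbol alone, as the rows whose symbol begins with Nduf, Uqcr, Atp5 or Cox followed by 4 to 8, plus Sdha, Sdhb, Sdhc and Sdhd, with symbols containing -ps left out. The rule found 97 members among the 55291 genes listed. Of these, 41 were grouped with complex I, 8 were Ndufaf assembly factors of complex I, and complexes II, III, IV and V had 4, 8, 19 and 17. Enough counts for a test were present for 87 of the 97, among 9815 genes tested in all. Gene positions below are from GENCODE M21 on GRCm38, the assembly also named mm10, where 95 of the 97 members were found, on 19 chromosomes. GENCODE lists 4 members as processed pseudogenes, Ndufs6b, Ndufa11b, Ndufb4c and Cox6c2, of which Ndufs6b passed the filter on low counts.

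The comparison was between 3 WT and 3 PYK2 KO libraries, each from the BMDMs of a separate mouse, so p-values measure the spread between mice. All animals are labelled C57BL/6, with no substrain or age given. PYK2 KO mice lack the kinase in every cell and not only in macrophages, and the cells of both genotypes were grown for 7 days in medium conditioned by L929 fibroblasts, the source of M-CSF. Libraries were made with a bulk version of MARS-seq, which reads the 3′ ends of polyadenylated RNA.

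Oxidative phosphorylation is the final stage of respiration in the inner mitochondrial membrane. Complex I takes electrons from NADH and complex II from succinate, complex III passes them to cytochrome c, complex IV hands them to oxygen, and complex V uses the resulting proton gradient to make ATP. Most subunits are encoded in the nucleus and imported, a small core is encoded by mitochondrial DNA, and macrophages are known to shift between respiration and glycolysis with their activation state.

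The libraries held between 2857097 and 3917207 counts, and members took 2.13% to 2.28% of them. The deleted gene, Ptk2b, which encodes PYK2 (chr14:66153257-66281052, minus strand), had 188, 196 and 199 CPM (counts per 1000000, scaled by the TMM factors of edgeR) in WT libraries 1, 5 and 6 against 22.8, 22.2 and 20.6 CPM in PYK2 KO libraries 2, 3 and 4. The genotypes were far apart, with a log2 fold change of -3.15 ± 0.10 (SE) for PYK2 KO over WT. All 10 macrophage markers passed the filter on low counts, and their summed level was 30819 to 31551 CPM in WT against 31866 to 33027 CPM in PYK2 KO. Most of that sum was held by 1 marker. By gene, 6 of the 10 had a positive and 4 a negative log2 fold change. Markers of T and NK, B, dendritic, erythroid, stromal, and mast and basophil cells summed to at most 33.3 CPM per list, reached by the B cell list. Cd3e, Flt3, Hbb-bs, Col3a1 and Cpa3 had 0 counts in every library, while 1 T and NK marker and 2 B cell markers passed the filter on low counts. The 8 neutrophil markers were higher, at 129 to 181 CPM in WT against 133 to 232 CPM in PYK2 KO.

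Promoter sequence gives the setting in which these genes are transcribed, so short motif windows are shown for abundant members and for Ndufb8. RefSeq promoters (build GRCm38.p6, 250 bases before to 50 after the gene start) were matched by symbol for 76 of 97 members. Each window is 30 bases, written 5′ to 3′ on the strand of the gene, with the motif in capitals. Motifs were searched on both strands. The first pair below carries the core of nuclear respiratory factor 1 (GCGCATGC or GCATGCGC), the next pair an ETS site of the GABP type (CCGGAAGT or ACTTCCGG), then a pair with a YY1 site (AAGATGGC or GCCATCTT), and the last an estrogen-related receptor site (TCAAGGTCA or TGACCTTGA).
Cox6a1, chr5:115349102-115349131, minus strand: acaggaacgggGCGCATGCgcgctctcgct
Sdhb, chr4:140961206-140961235, plus strand: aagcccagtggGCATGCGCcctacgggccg
Atp5h, chr11:115419940-115419969, minus strand: ccaaggagagaACTTCCGGcaactctcttc
Cox8a, chr19:7217604-7217633, minus strand: atttccgaaatACTTCCGGctcgggcgtcc
Atp5j2, chr5:145191500-145191529, minus strand: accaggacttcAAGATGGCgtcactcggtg
Ndufb8, chr19:44555393-44555422, minus strand: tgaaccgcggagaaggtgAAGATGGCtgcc
Atp5g3, chr2:73911359-73911388, minus strand: tgttacaaagTGACCTTGAgcgtcttcccc

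The NRF1 core was present in 12 of 76 member promoters (15.8%), against 3.05% of all 27025 promoters and 6.58% of the promoters of genes tested here. The YY1 letters were present in 11 members (14.5%, against 3.19% and 6.17%). The GABP letters were present in 5 members (6.58%), above all promoters (4.31%) and below the tested genes (10.6%). The estrogen-related receptor site was present in Atp5g3 and Sdhd (2.63%, against 0.466% and 0.36%). At least 1 of the 4 motifs was found in 29 members (38.2%), against 10.4% of all promoters and 21.9% of those of tested genes. These are matches of letters in a fixed window, and binding was not measured. The YY1 letters shown for Atp5j2 and Ndufb8 begin 23 and 38 bases after the gene start. AAGATGGC contains ATG, and whether such a match was a start codon was not tested.

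No member was called between the genotypes. By the quasi-likelihood test of edgeR, with p adjusted by Benjamini-Hochberg over all 9815 genes, 0 of 87 members passed an adjusted p of 0.05, against 25 genes in all (0.255%). At an unadjusted p under 0.05 there were 5 members, 3 higher in PYK2 KO (Cox7a2, Ndufb8, Ndufa5) and 2 lower (Ndufaf5, Ndufa4), while 6.03% of all tested genes reached this. DESeq2, limma voom and edgeR's likelihood ratio test also called 0 members, where they called 0.224%, 0.204% and 0.458% of all tested genes. At an unadjusted p under 0.05 they found 2, 5 and 5 members, against 2.76%, 6% and 5.76% of all tested genes. The 3 libraries of each genotype did not overlap for 2 members, Ndufaf5 and Atp5md, both lower in PYK2 KO, while 10.2% of all tested genes did not overlap. In bulk RNA a level sums over cells, so fewer cells of a type and less RNA per cell cannot be told apart.

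The differences were small as well as uncalled. Fold changes lay within 0.25 of 0 on the log2 scale for 79 of 87 members (90.8%, against 82.2% of all tested genes), from -0.47 for Ndufaf5 to 0.39 for Ndufaf1. The 95% confidence interval of the fold change lay inside 1.5-fold in either direction for 79 members (90.8%, against 69.2% of all tested genes). Members are abundant, with a median of 219 CPM against 31.0 CPM over all tested genes, which narrows their intervals. Among genes above 100 CPM, 64 of 65 members (98.5%) and 98.2% of all genes had intervals inside 1.5-fold. Fold changes lay within 0.25 of 0 for 98.5% of these members and 96.7% of all such genes. At this abundance neither measure set the members apart. The exception above 100 CPM was Cox7a2. A p that misses the threshold does not show equal expression, and these intervals give the size of change that the 6 libraries leave room for.

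**Figure D1:**
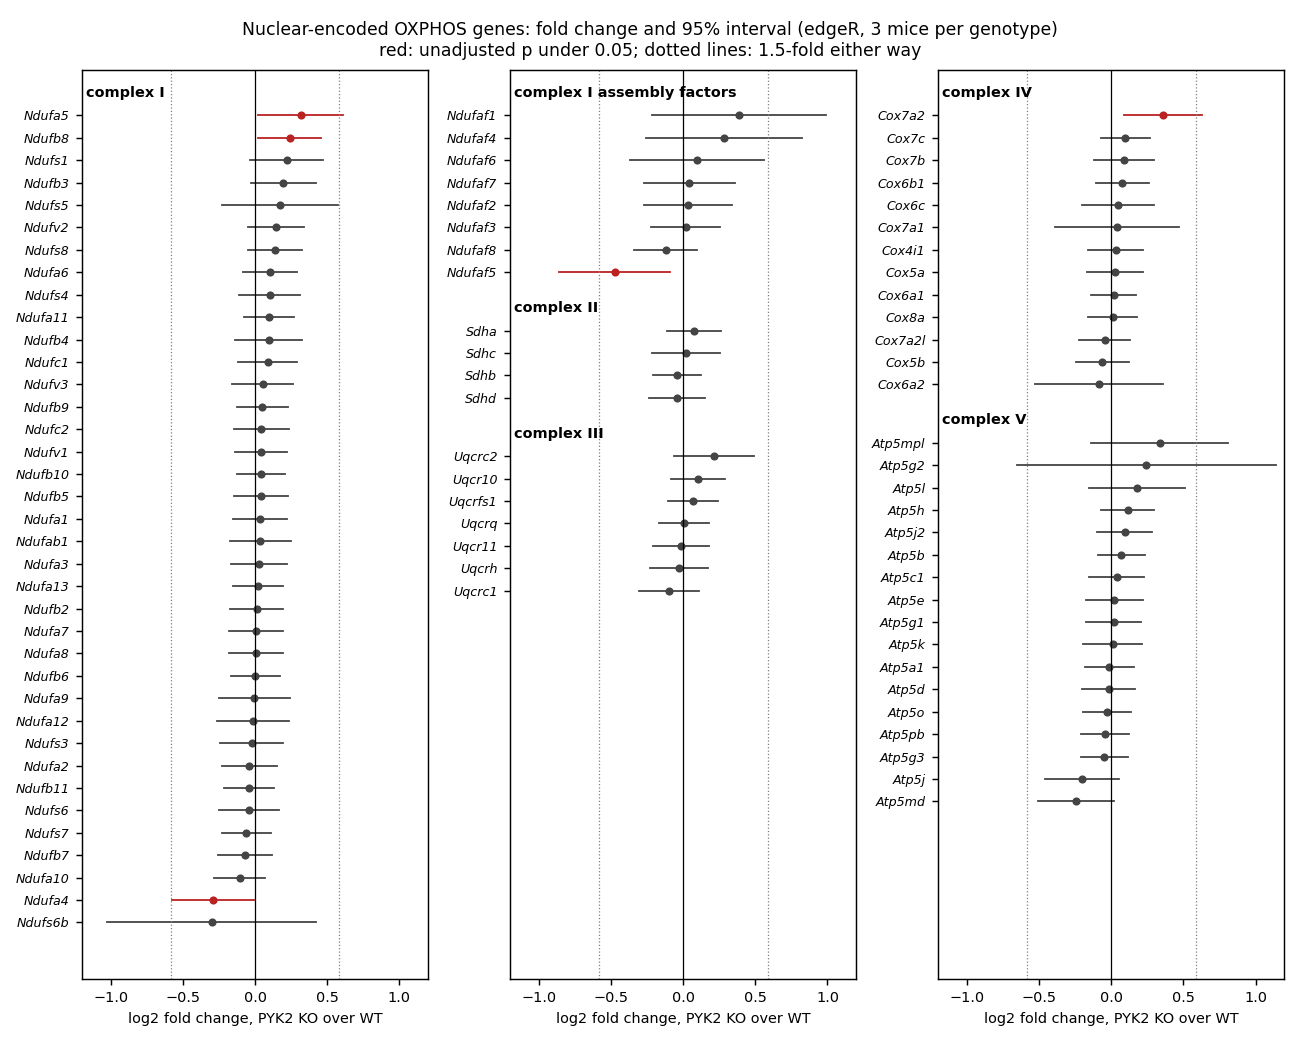
Log2 fold change of PYK2 KO over WT (x axis) with its 95% confidence interval for the tested members reported here, sorted within each complex, with the 5 members at an unadjusted p under 0.05 in red and 1.5-fold either way as dotted lines. Most intervals cross 0 and stay between the dotted lines, and the widest belong to members of low counts such as Ndufaf1, Ndufs6b and Atp5g2.

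The median log2 fold change of the 87 members was 0.03, against 0.0019 for all tested genes. Positive values were found in 58 members and negative values in 29 (66.7% positive, against 50.5% of all tested genes). Above 100 CPM the positive share was 64.6% of members against 43.5% of all genes, with medians of 0.02 and -0.01. By group the median was 0.04 for complex I, 0.04 for its assembly factors, -0.01 for complex II, 0.01 for complex III, 0.03 for complex IV and 0.02 for complex V. The median of the members moved to 8.2e-04 when WT library 1 was left out and to -0.0035 when PYK2 KO library 2 was. The direction of a group median was not stable either. Without WT library 1 the medians of complexes I, II, IV and V were -0.0024, 0.08, -0.04 and -0.02. Without PYK2 KO library 2 they were -0.0013 for complex IV and -0.02 for complex V, without PYK2 KO library 3 it was 0.02 for complex II, and without PYK2 KO library 4, or with no filter on low counts, it was -0.01 for complex III.

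Summed over all 97 members, the level was 21313, 22628 and 22257 CPM in the WT libraries and 23109, 21588 and 22485 CPM in the PYK2 KO libraries. The lowest sum was in WT library 1 and the highest in PYK2 KO library 2, and the genotypes overlapped. The means were 22066 ± 678 CPM in WT against 22394 ± 764 CPM in PYK2 KO (SD, n = 3), a ratio of 1.01. The ratio of summed levels was 1.02 for complex I, 0.96 for the assembly factors, 0.99 for complex II, 1.01 for complexes III and V, and 1.02 for complex IV, and the genotypes overlapped for every group.

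Complex I was represented by 38 tested members at 4.79 to 666 CPM, the lowest being the annotated pseudogene Ndufs6b and the next Ndufs5 at 18.4 CPM. Counts at the 3′ end are not divided by transcript length and depend on the polyadenylation site, so a level here ranks genes only loosely. Ndufa13, an accessory subunit, had the highest level, at 620, 691 and 671 CPM in WT against 719, 628 and 665 CPM in PYK2 KO. Its libraries interleaved and the log2 fold change was 0.02 ± 0.08 (SE), with an interval from -0.15 to 0.20. Of the core subunits, those that carry the flavin or iron-sulphur centres gave log2 fold changes of 0.04 for Ndufv1, 0.15 for Ndufv2, 0.22 for Ndufs1, -0.06 for Ndufs7 and 0.14 for Ndufs8, each with an interval that included 0.

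Ndufb8, an accessory subunit of the membrane arm (chr19:44548572-44555440, minus strand), had 250, 290 and 271 CPM in WT against 304, 283 and 369 CPM in PYK2 KO. PYK2 KO library 4 stood above the other 5 libraries, which overlapped. The log2 fold change was 0.24 ± 0.10 (SE, edgeR quasi-likelihood, Benjamini-Hochberg adjusted p = 0.769). Ndufa5, an accessory subunit of the peripheral arm (chr6:24518666-24528013, minus strand), had 40.1, 43.4 and 48.0 CPM in WT against 46.5, 49.5 and 66.5 CPM in PYK2 KO. PYK2 KO library 4 was again the highest and the genotypes again overlapped, with a log2 fold change of 0.32 ± 0.14 (SE, edgeR quasi-likelihood, Benjamini-Hochberg adjusted p = 0.783).

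Ndufa4 carries a complex I name and is grouped by it here, although its protein is now placed in complex IV. It was named after its values were seen. Its levels were 44.9, 47.3 and 49.1 CPM in WT against 38.8, 45.4 and 31.6 CPM in PYK2 KO. PYK2 KO library 4 was the lowest, and PYK2 KO library 3 lay above WT library 1. The log2 fold change was -0.29 ± 0.13 (SE, edgeR quasi-likelihood, Benjamini-Hochberg adjusted p = 0.82).

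The assembly factors, which help to build complex I without being part of it, were the least abundant group, with a median of 18.9 CPM against 184 CPM for the other complex I members. Ndufaf5, a factor that modifies the subunit Ndufs7 (chr2:140170649-140203689, plus strand), had 21.2, 16.0 and 20.3 CPM in WT against 15.1, 12.5 and 13.7 CPM in PYK2 KO. Every PYK2 KO library was below every WT library, though WT library 5 and PYK2 KO library 2 were close. The means were 19.2 ± 2.81 CPM and 13.8 ± 1.30 CPM (SD, n = 3), and the log2 fold change was -0.47 with an interval from -0.86 to -0.09. It did not pass after adjustment (edgeR quasi-likelihood, Benjamini-Hochberg adjusted p = 0.662), and its counts were 36 to 83 per library.

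Ndufaf1, a factor of membrane arm assembly, had the highest fold change of all members from only 15 to 20 counts per library. It measured 3.83, 5.04 and 5.26 CPM in WT against 6.42, 6.93 and 5.07 CPM in PYK2 KO, and the genotypes overlapped. The log2 fold change was 0.39 with an interval from -0.22 to 0.99. Ndufaf8, the most abundant factor, had 113, 142 and 121 CPM in WT against 127, 114 and 105 CPM in PYK2 KO, with a log2 fold change of -0.12 and an interval from -0.34 to 0.10. The remaining 5 factors had log2 fold changes from 0.02 for Ndufaf3 to 0.28 for Ndufaf4.

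Complex II, succinate dehydrogenase, links the tricarboxylic acid cycle to the chain and has all 4 subunits encoded in the nucleus. Sdha, the flavoprotein that oxidises succinate, had 224, 218 and 197 CPM in WT against 233, 204 and 239 CPM in PYK2 KO. Sdhb, the iron-sulphur subunit shown above with an NRF1 core, had 549, 507 and 498 CPM in WT against 514, 491 and 505 CPM in PYK2 KO. The genotypes overlapped for both, with log2 fold changes of 0.08 and -0.04.

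The membrane anchors completed the group. Sdhc had 217, 172 and 152 CPM in WT against 198, 171 and 181 CPM in PYK2 KO. Sdhd had 246, 214 and 196 CPM in WT against 221, 207 and 209 CPM in PYK2 KO. WT library 1 was the highest and WT library 6 the lowest of the 6 for Sdhc and Sdhd, and WT library 1 was also the highest for Sdhb, so for these 3 subunits the WT libraries spread more widely than the PYK2 KO libraries. Log2 fold changes were 0.02 for Sdhc and -0.05 for Sdhd, and intervals of the 4 subunits ran from -0.24 at the lowest to 0.27 at the highest. Summed complex II level was 1237, 1111 and 1044 CPM in WT against 1166, 1073 and 1134 CPM in PYK2 KO.

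Complex III had 7 tested members. Uqcrq, a small subunit beside cytochrome b, was the most abundant, at 527, 605 and 544 CPM in WT against 559, 538 and 585 CPM in PYK2 KO. Its log2 fold change was 0.01, with an interval from -0.17 to 0.18. Uqcrc2, a core subunit, had 55.7, 65.2 and 54.0 CPM in WT against 64.8, 56.5 and 81.4 CPM in PYK2 KO. Its highest library was PYK2 KO 4, the others interleaved, and the log2 fold change was 0.22 with an interval from -0.06 to 0.49 (edgeR quasi-likelihood, Benjamini-Hochberg adjusted p = 0.905).

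Uqcr10, a further small subunit, had 349, 378 and 372 CPM in WT against 435, 377 and 368 CPM in PYK2 KO. PYK2 KO library 2 was the highest, the others overlapped, and the log2 fold change was 0.10 with an interval from -0.08 to 0.29. Uqcrfs1, the Rieske iron-sulphur protein, and Uqcrc1, the other core subunit, had log2 fold changes of 0.07 and -0.10. Uqcrb had only 4 to 12 counts per library and was not tested, and 40.6% of the 50-base words at its annotated 3′ end occurred in other genes, so its level is uncertain.

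Complex IV, cytochrome c oxidase, had 13 tested members. Cox6a1 was the most abundant of all OXPHOS members, at 993, 1003 and 1014 CPM in WT against 1044, 999 and 1002 CPM in PYK2 KO. These 6 values lay close together, with means of 1003 ± 10.5 CPM and 1015 ± 25.1 CPM (SD, n = 3) and a log2 fold change of 0.02 ± 0.07 (SE). Cox7c, a small subunit, had 311, 304 and 323 CPM in WT against 352, 322 and 330 CPM in PYK2 KO. PYK2 KO library 3 lay just below WT library 6, and the log2 fold change was 0.10 with an interval from -0.07 to 0.27. As 65.2% of the 50-base words at the 3′ end of Cox7c were shared with other genes, its counts may be incomplete.

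Cox7a2, the broadly expressed form of a small subunit (chr9:79755361-79759878, minus strand), had the smallest unadjusted p of all members. It had 120, 127 and 121 CPM in WT against 124, 149 and 199 CPM in PYK2 KO. The WT libraries were close together, PYK2 KO library 2 lay among them and library 4 far above, so the genotypes overlapped. The means were 123 ± 3.67 CPM and 157 ± 37.9 CPM (SD, n = 3), and the log2 fold change was 0.36 with an interval from 0.09 to 0.63 (edgeR quasi-likelihood, Benjamini-Hochberg adjusted p = 0.619). With no filter on low counts the same test gave it a Benjamini-Hochberg adjusted p of 0.0234 (edgeR quasi-likelihood), and it was then the only member called. That fit called 159 of 18659 genes in all. Under the other alternatives the adjusted p of Cox7a2 (Benjamini-Hochberg, by edgeR, DESeq2 or limma voom) was between 0.11 and 0.9999, and without PYK2 KO library 4 its log2 fold change was 0.15.

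Several subunits of complexes I and IV have forms restricted to certain tissues or conditions, and most of these were at or near 0. Cox4i2, Cox7b2, Cox8b, Cox8c and Ndufa4l2 had 0 counts in every library, where Cox4i1 had 857 to 1076 CPM, Cox7b 124 to 161 CPM, Cox8a 328 to 353 CPM and Ndufa4 31.6 to 49.1 CPM. Cox6b2 had 0 to 4 counts, beside 487 to 601 CPM of Cox6b1. Low levels were found for the muscle forms Cox6a2, at 10.2 to 15.7 CPM beside Cox6a1, and Cox7a1, at 9.70 to 13.4 CPM beside Cox7a2, with the genotypes overlapping. The other untested members were Cox6c2 with 0 to 1 counts, Ndufb4c with 0 to 2 counts and Ndufa11b with 0 counts.

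Complex V, ATP synthase, had all of its 17 members tested. Atp5b, the catalytic beta subunit, was the most abundant, at 887, 968 and 989 CPM in WT against 1030, 982 and 976 CPM in PYK2 KO. WT library 1 was the lowest and the genotypes overlapped, with a log2 fold change of 0.07 ± 0.08 (SE). The other subunits of the catalytic head and its stalk, Atp5a1, Atp5c1, Atp5d and Atp5e, had log2 fold changes of -0.01, 0.04, -0.02 and 0.02.

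Atp5md, a small membrane subunit, had 49.0, 50.7 and 50.5 CPM in WT against 44.0, 47.5 and 35.8 CPM in PYK2 KO. Every PYK2 KO library was below every WT library, by little in PYK2 KO library 3, with means of 50.1 ± 0.892 CPM and 42.4 ± 6.00 CPM (SD, n = 3). The log2 fold change was -0.24 with an interval from -0.50 to 0.02 (edgeR quasi-likelihood, Benjamini-Hochberg adjusted p = 0.862). Atp5j, coupling factor 6 of the stalk, had 201, 178 and 154 CPM in WT against 171, 171 and 123 CPM in PYK2 KO. The genotypes overlapped, PYK2 KO library 4 was the lowest, and the log2 fold change was -0.20 with an interval from -0.46 to 0.05.

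Atp5g2, which encodes a precursor of the membrane ring subunit c, varied most within a genotype and was named after its values were seen. It had 17.1, 3.36 and 15.4 CPM in WT against 18.9, 5.89 and 17.0 CPM in PYK2 KO. WT library 5 and PYK2 KO library 3 were low, so its interval was the widest of the members, from -0.65 to 1.14. At its 3′ end 55.5% of the 50-base words occurred in other genes. The other genes for the same ring subunit, Atp5g1 and Atp5g3, had 187 to 224 CPM and 607 to 682 CPM and log2 fold changes of 0.02 and -0.05. Of the words at the 3′ end of Atp5g1, 36% occurred in other genes.

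**Figure D2:**
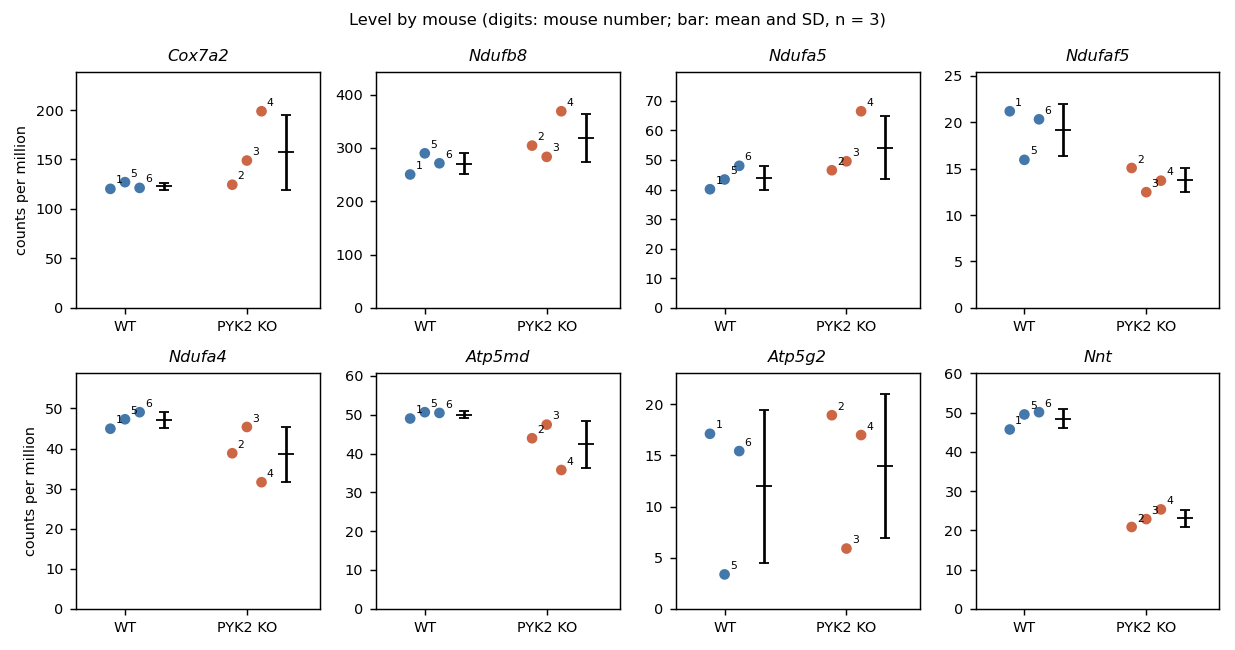
Level in CPM (y axis, from 0) of the 5 members at an unadjusted p under 0.05, of Atp5md and Atp5g2, and of Nnt, in each WT (blue) and PYK2 KO (orange) mouse, with mouse numbers beside the points and the mean and SD at the right. PYK2 KO mouse 4 is the farthest from WT for Cox7a2, Ndufb8, Ndufa5, Ndufa4 and Atp5md, while for Nnt all 3 PYK2 KO mice lie at 20.9 to 25.3 CPM, below the WT range of 45.7 to 50.1 CPM.

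Single libraries took unequal shares of the extremes. WT library 1 was the lowest of the 6 for 34 of the 87 members (39.1%, against 18.1% of all tested genes), and PYK2 KO library 3 was the lowest for 17 (19.5%, against 13.5%). PYK2 KO library 4 was the highest for 23 (26.4%, against 20.7%) and the lowest for 13 (14.9%, against 20.8%). Without PYK2 KO library 4 the number of members at an unadjusted p under 0.05 was 1, and without WT library 1 it was 3. Without PYK2 KO library 4 the log2 fold changes of Cox7a2, Ndufb8, Ndufa5 and Ndufa4 were 0.15, 0.12, 0.14 and -0.16, while that of Ndufaf5 was -0.47. These 5 genes were picked by their p in the fit that included that library. B2m, the beta chain of MHC class I, which was chosen after its values were seen, also differed widely, at 971, 263 and 213 CPM in WT against 523, 1046 and 1521 CPM in PYK2 KO. The 8 neutrophil markers summed to 181, 129 and 147 CPM in WT against 133, 232 and 230 CPM in PYK2 KO. Of the 6 tested, Mpo, S100a8 and S100a9 were highest in PYK2 KO library 4, Ltf and Ngp in PYK2 KO library 3 and Camp in WT library 5. Any part of B2m or of these markers in the member values was not tested.

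**Figure D3:**
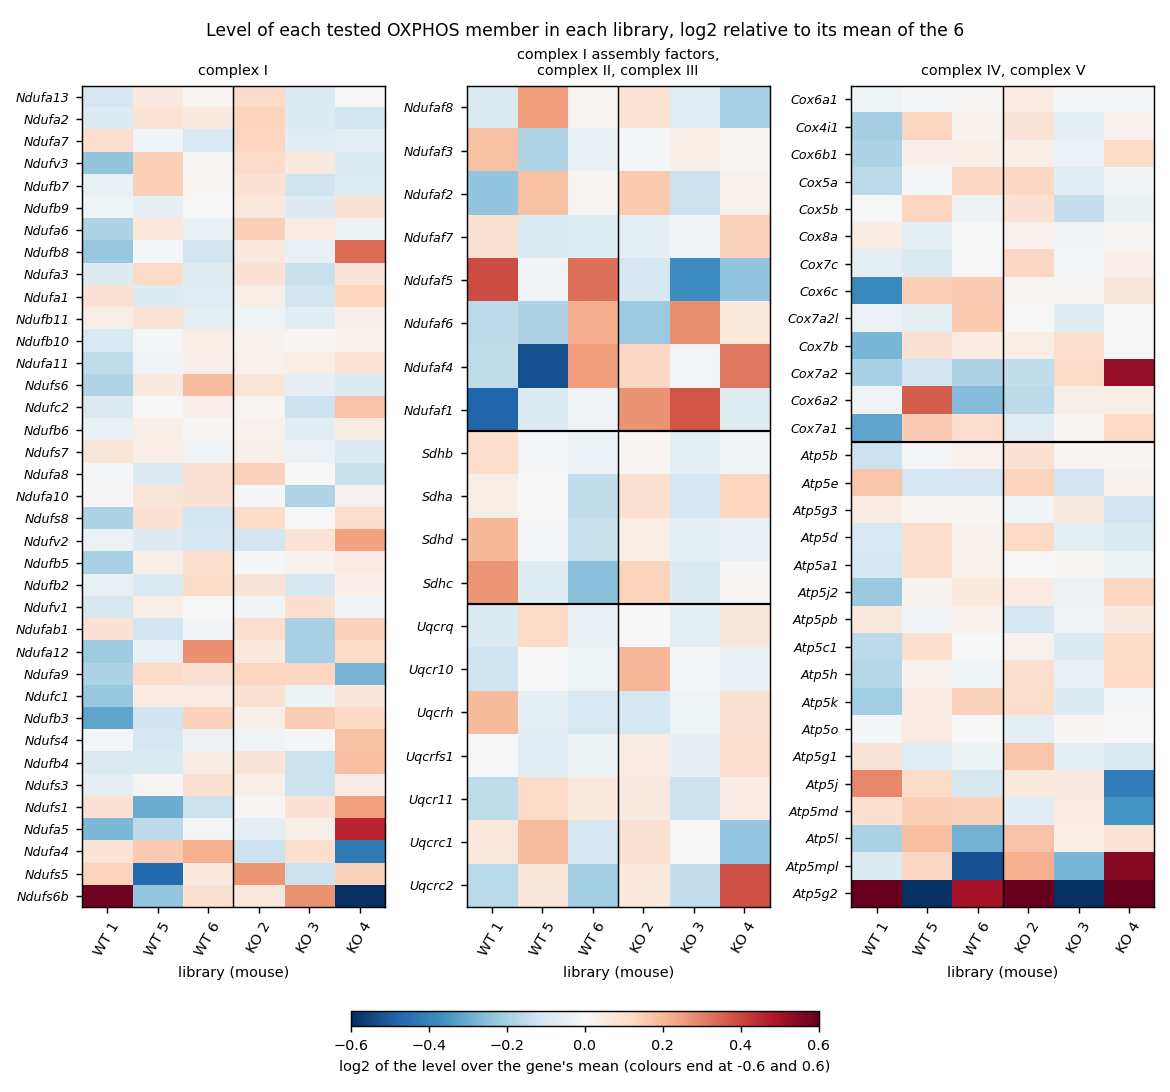
Level of each tested member reported here (rows, by complex and falling mean level) in each library (columns), as log2 of the level over the gene's own mean of the 6, from blue (below) to red (above). The WT 1 column is blue for many members, the lowest of the 6 for 34, the strongest colours sit in rows of low counts, and no block separates the 3 WT from the 3 PYK2 KO columns.

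Among genes that act with the chain but do not match the symbol rule, 1 differed between the genotypes. Nnt, the inner membrane transhydrogenase that uses the proton gradient to make NADPH (chr13:119335448-119408997, minus strand), had 45.7, 49.5 and 50.1 CPM in WT against 20.9, 22.9 and 25.3 CPM in PYK2 KO. The genotypes were far apart, with means of 48.5 ± 2.40 CPM and 23.0 ± 2.24 CPM (SD, n = 3). The log2 fold change was -1.07 with an interval from -1.34 to -0.79 (edgeR quasi-likelihood, Benjamini-Hochberg adjusted p = 5.36e-04), and Nnt was called under all 8 alternative settings and in all 6 fits that left out a library. Substrains of C57BL/6 are known to differ at Nnt. The labels give no substrain, and the study's methods name the C57BL/6 OlaHsd stock only in the breeding of controls for a different, macrophage-specific knockout. The part of substrain here was not tested.

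The other 10 tested genes of that list were not called, where 0.255% of all tested genes were. At an unadjusted p under 0.05 the list held 2 genes, Nnt and Gpd2, against 6.03% of all tested genes. Gpd2, the mitochondrial glycerol-3-phosphate dehydrogenase, named after its values were seen, had 16.1, 10.4 and 17.2 CPM in WT against 20.2, 19.1 and 22.7 CPM in PYK2 KO. Every PYK2 KO library was above every WT library, while 10.2% of all tested genes did not overlap. The log2 fold change of Gpd2 was 0.52 (edgeR quasi-likelihood, Benjamini-Hochberg adjusted p = 0.661). Cyc1, cytochrome c1 of complex III, had 174, 192 and 218 CPM in WT against 231, 188 and 219 CPM in PYK2 KO, with overlap and a log2 fold change of 0.13. Cycs, cytochrome c itself, had 15.6, 12.6 and 12.6 CPM in WT against 12.2, 4.16 and 17.0 CPM in PYK2 KO. PYK2 KO library 3 was low for Cycs, and its interval was wide, from -0.94 to 0.39.

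In the lists of assembly factors with other names (40 tested), the tricarboxylic acid cycle and pyruvate dehydrogenase (20), regulators of mitochondrial gene expression (15) and carriers, pores and structural proteins of the mitochondrial membranes and intermembrane space (12), 0 genes were called by edgeR's quasi-likelihood test. At an unadjusted p under 0.05 they held 1, 1, 0 and 0 genes. Over all tested genes the shares were 0.255% called and 6.03% at an unadjusted p under 0.05. DESeq2, limma voom and edgeR's likelihood ratio test called 0 in each as well. At an unadjusted p under 0.05 they found 1 or 0 genes per list, against 2.76%, 6% and 5.76% of all tested genes. The lowest p of the first list was that of Sco2, a copper chaperone of complex IV, at 59.8, 56.8 and 59.6 CPM in WT against 42.7, 49.2 and 44.1 CPM in PYK2 KO. The PYK2 KO libraries lay below the WT libraries, with a log2 fold change of -0.38 ± 0.11 (SE, edgeR quasi-likelihood, Benjamini-Hochberg adjusted p = 0.416).

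Dld, the dihydrolipoamide dehydrogenase shared by pyruvate and oxoglutarate dehydrogenases, had 34.0, 32.2 and 29.1 CPM in WT against 40.1, 34.6 and 41.1 CPM in PYK2 KO, without overlap and with a log2 fold change of 0.28 (edgeR quasi-likelihood, Benjamini-Hochberg adjusted p = 0.82). Pprc1, a coactivator related to PGC-1, had 21.7, 21.8 and 35.1 CPM in WT against 39.8, 31.5 and 29.8 CPM in PYK2 KO, with overlap and a log2 fold change of 0.39. Chchd10, a protein of the intermembrane space, had 114, 118 and 118 CPM in WT against 112, 106 and 93.6 CPM in PYK2 KO, without overlap and with a log2 fold change of -0.17. Neither Pprc1 nor Chchd10 was called (edgeR quasi-likelihood, Benjamini-Hochberg adjusted p = 0.838 and 0.888). Sco2, Dld and Chchd10 each had the smallest p of its list, and genes without overlap made up 10.2% of all tested genes.

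The mRNAs encoded by mitochondrial DNA, which supply the other subunits of complexes I, III, IV and V, had few counts. All counts from the mitochondrial genome were at most 0.0458% of a library, and 7 of the 13 mRNAs had 0 to 1 counts, mt-Co2, mt-Co3 and mt-Atp6 at 0 among them. Capture of these mRNAs and the way the pipeline annotated and counted the mitochondrial genome could not be told apart from the counts. The 6 tested mRNAs were not called, and 0 had an unadjusted p under 0.05 by edgeR's quasi-likelihood test, against 6.03% of all tested genes. They were also called by none of DESeq2, limma voom or the likelihood ratio test. Mt-Nd4 had 88.9, 77.8 and 68.3 CPM in WT against 69.9, 78.3 and 69.1 CPM in PYK2 KO, with overlap and a log2 fold change of -0.12. Summed level of the mitochondrial mRNAs was 262 ± 5.78 CPM in WT against 253 ± 14.1 CPM in PYK2 KO (SD, n = 3).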

How the data were processed

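The authors deposited a table of raw read counts per gene for 6 BMDM libraries, made from bulk MARS-seq with the UTAP pipeline. The submitters' processing notes name cutadapt, STAR and mm10; versions, gene annotation and any collapsing of molecular identifiers are not given in the sources used here. No columns of other samples were present (0). From these counts, genes were filtered with filterByExpr, scaled with TMM and tested with edgeR 4.0.16 (quasi-likelihood F test, PYK2 KO against WT, no covariate, Benjamini-Hochberg over 9815 genes) in R 4.3.3. CPM are relative to the scaled total of the tested genes. The step was tested on simulated counts. Alternatives were other scalings and filters, DESeq2 1.42.0, the likelihood ratio test, limma 3.58.1 voom, and leaving out each library. Gene positions and 3′ ends were read from GENCODE M21 and promoters from RefSeq. Members and lists were chosen with earlier results of these data known. Genes with values per library were, in each group, the 2 with the smallest unadjusted p and the most abundant, all 4 Sdh genes, tissue-restricted forms and their partners, Cyc1, Cycs and Nnt, and in each other list any called gene or else the 1 with the smallest p; Ndufa4, Atp5g2, Gpd2 and B2m were added after their values were seen. Replicates of a genotype differed beyond sampling noise, so no library was counted double. Values of 1 member and 1 marker gene are not reported here.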

Additional observations from a re-analysis of the deposited data

How the results depend on the processing

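No paired analysis was made because the labels record no pairing of WT with PYK2 KO mice. WT libraries are numbered 1, 5 and 6 and PYK2 KO libraries 2, 3 and 4. The number of members called was 0 in all fits but the one with no filter on low counts, where it was 1 (Cox7a2, among 91 members tested). That fit called 159 of 18659 genes, against 25 of 9815 in the reported fit and 45 of 9815 by the likelihood ratio test. The number of members at an unadjusted p under 0.05 was 2 with DESeq2, against 2.76% of all tested genes. It was 1 to 7 when a library was left out, down to 1 on removal of PYK2 KO library 4 and 3 on removal of WT library 1. The share of all genes at that p is not given for the fits that left out a library. The median log2 fold change of the members ran from -0.0035 to 0.05 over the fits that left out a library, and for complex IV it was -0.04, 0.10 and 0.09 without WT library 1, 5 or 6. For Uqcrq the log2 fold change turned from 0.01 to -7.7e-04 without the filter. When a library was left out, direction turned for genes near 0 and for Cycs: Ndufa13 ran from -0.033 to 0.066, Sdhb from -0.069 to 0.0013, Sdhc from -0.085 to 0.18, Sdhd from -0.12 to 0.050, Uqcrq from -0.036 to 0.067, Cox6a1 from -0.0047 to 0.027 and Cycs from -0.72 to 0.098. Of 405 fold changes of 29 genes under the alternatives, 391 had the sign and the call of the reported fit. Only Ptk2b and Nnt were called there, and many of the rest were picked for a small p. For genes other than Ptk2b and Nnt the match asked only for the same sign and no call. The log2 fold change of Ptk2b was -3.19 to -3.11 over all fits. The count over all genes was 14 to 34 when a library was left out, lowest without PYK2 KO library 4 (14) and at 15 on removal of either WT 5 or PYK2 KO 2. The cause of these shifts was not tested. Depth limits members such as Ndufaf1, with 15 to 20 counts per library, to wide intervals.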

Other observations

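Symbols ending in -ps were left out by the symbol rule, although 2 of them were expressed. Ndufb1-ps had 86.8, 91.0 and 90.1 CPM in WT against 90.8, 97.0 and 94.5 CPM in PYK2 KO, with overlap and a log2 fold change of 0.08 (edgeR quasi-likelihood, Benjamini-Hochberg adjusted p = 0.955). Ndufa12-ps had 16.1 to 25.5 CPM in WT against 19.4 to 25.3 CPM in PYK2 KO, with a log2 fold change of 0.11.

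Among the 6 tested neutrophil markers, log2 fold changes were 1.19 for Mpo, 0.85 for S100a9, 0.19 for Ngp, 0.10 for S100a8, -0.09 for Ltf and -0.26 for Camp. None of the 6 was called by edgeR's quasi-likelihood test, where 0.255% of all tested genes were. By that test 2 of them (Mpo and S100a9) had an unadjusted p under 0.05, against 6.03% of all tested genes. S100a9 was called with no filter on low counts, and not by the filtered edgeR, DESeq2, likelihood ratio or limma voom tests. The ribosomal RNAs of the mitochondria, mt-Rnr1 and mt-Rnr2, had 25.3 to 40.0 CPM and 86.1 to 154 CPM over the 6 libraries, with log2 fold changes of 0.07 and 0.17, while 7 of the 13 mitochondrial mRNAs stood at 0 to 1 counts.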
